A study of Mus musculus with 44 samples.

Results

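Adiponectin (Adipoq), leptin (Lep), resistin (Retn), perilipin 1 (Plin1), Pparg, hormone-sensitive lipase (Lipe) and the beta-3 adrenergic receptor (Adrb3) are genes by which fat cells are recognised. Here these 7 genes, of 38202 in the tables, were followed in liver and skeletal muscle of male mice. They were taken by name, and each symbol was found once in both tables. The mice were littermates on C57BL/6N, either wild-type (WT) or carrying a constitutive whole-body deletion of the promoter and the first exons of Slc16a13, a lactate transporter gene (KO). Every mouse had been on high-fat diet (HFD) for 15 weeks, was killed at 20 weeks of age (after an overnight fast by the study's general protocol), and gave 1 liver and 1 muscle library. There were 11 WT and 11 KO mice and 44 libraries of bulk poly(A) RNA.

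White adipocytes store triglyceride in a single large droplet coated by perilipin 1. Catecholamines act on beta-adrenergic receptors of the cell, and hormone-sensitive lipase then takes part in the release of fatty acids. Adiponectin and leptin are adipocyte hormones, and in mice so is resistin. PPARG is the nuclear receptor that drives adipocyte differentiation. Skeletal muscle is not made of adipocytes, but fat cells lie between its fibres and bundles. Liver holds no adipocyte depot, yet hepatocytes of mice with fatty liver are known to raise Pparg together with lipid droplet genes.

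Library depth was 20150712 to 35218243 counts, and levels are given as CPM, that is, counts scaled to the size of the library. Defining markers matched the labelled tissue, since the 6 myofibre genes summed to 115095 to 165674 CPM in muscle and 0 to 50.3 CPM in liver, and the 6 hepatocyte genes to 84046 to 115690 CPM in liver and 4.16 to 59.8 CPM in muscle. Slc16a13 had 99 to 302 counts in WT livers and 0 to 8 in KO livers. In muscle it had 4 to 22 counts in WT libraries and 11 to 40 in those labelled KO, which went against the label, so the latter are called muscle libraries labelled KO throughout. In 4 KO livers, those of mice 532, 583, 602 and 611, levels fell with gene length (slope of log2 CPM on log2 length -0.53 to -0.08, against 0.037 to 0.11 in the other 18 livers), and the genotype comparisons of the adipocyte genes in liver are given with and without them. In muscle, the libraries of mice 561 and 611, both labelled KO, stood apart in the adipocyte genes. The genotype comparisons of the adipocyte genes in muscle are given with and without these 2. The ratios to Adipoq and the ranking of genes most like Adipoq include them.

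The 4 genes that followed each other most closely from one muscle to the next, and were almost absent from liver, were Adipoq, Lep, Retn and Plin1. The 250 bases before the start of each are shown so that the letters searched for in them can be seen (RefSeq, GRCm38.p6, 5′ to 3′ on the strand of the gene; capitals mark TTGCNNAA, the letters read by C/EBP factors). They lie at chr16:23146286-23146535 (plus strand), chr6:29059971-29060220 (plus strand), chr8:3655520-3655769 (plus strand) and chr7:79732777-79733026 (minus strand).
Adipoq: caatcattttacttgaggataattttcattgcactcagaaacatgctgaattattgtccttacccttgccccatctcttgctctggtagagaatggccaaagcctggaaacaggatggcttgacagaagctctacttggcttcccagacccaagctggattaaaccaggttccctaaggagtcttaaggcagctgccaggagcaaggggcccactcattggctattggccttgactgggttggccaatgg
Lep: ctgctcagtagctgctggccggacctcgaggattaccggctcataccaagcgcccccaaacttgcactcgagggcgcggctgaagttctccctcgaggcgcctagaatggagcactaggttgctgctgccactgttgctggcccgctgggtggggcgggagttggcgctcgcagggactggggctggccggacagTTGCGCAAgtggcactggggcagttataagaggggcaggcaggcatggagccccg
Retn: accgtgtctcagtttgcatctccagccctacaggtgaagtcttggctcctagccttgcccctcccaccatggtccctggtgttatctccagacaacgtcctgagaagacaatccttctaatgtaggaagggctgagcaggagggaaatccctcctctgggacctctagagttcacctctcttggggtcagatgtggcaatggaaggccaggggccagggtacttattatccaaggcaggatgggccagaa
Plin1: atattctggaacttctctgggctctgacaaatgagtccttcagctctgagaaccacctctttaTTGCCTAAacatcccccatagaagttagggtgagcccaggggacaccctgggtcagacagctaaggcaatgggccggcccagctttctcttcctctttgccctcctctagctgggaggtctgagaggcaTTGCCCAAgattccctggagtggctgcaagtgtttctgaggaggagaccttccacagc

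Entries were found for 6 of the 7 genes, with 9 starts in all, since Pparg has 3 and Lipe has 2. On both strands of the full window of 300 bases, TTGCNNAA was present at 3 of these 9 starts, those of Lep, of Plin1 and the third of Pparg, against 10.8% of all 32851 promoters. In Lep the match lay 55 bases before the start, and in Plin1 there were matches 187 and 58 bases before it. The nuclear receptor hexamer AGGTCA was present at 2 starts, both of Pparg, against 16.3% of all promoters. Its direct repeat spaced by 1 base, searched with up to 2 mismatches in the 12 fixed letters and overlapping with the single hexamer, was found at 0 of the 9 starts, against 3.86%. TATAAA was found at 1 start, the second of Pparg, against 13.6%. No other motif was searched. Among the 4 promoters shown, those of Adipoq and Retn held none of these letters.

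The adipokine genes were measured in every muscle library and were close to absent from liver. Adipoq, which encodes adiponectin, had 486 to 2890 counts in WT muscle (median 1489) and 815 to 6262 in muscle labelled KO (median 1366), but 0 to 2 counts in WT liver and 0 to 7 in KO liver. All 22 muscle libraries were above all 22 liver libraries. Summed over the 11 WT mice there were 16219 counts in muscle and 11 in liver, a level in CPM 1399 times higher in muscle (exact 95% interval 782 to 2803, counting error only). Lep, the leptin gene, had 492 to 4479 counts in WT muscle (median 1873) and 795 to 7269 in muscle labelled KO (median 1520). In liver it had 0 counts in each of the 22 libraries. With 0 of 277710241 counts over the WT livers, which allows up to 0.0108 CPM at a limit of 3 counts over the group, Lep was at least 6789-fold higher in WT muscle. Retn, which encodes resistin, had 74 to 652 counts in WT muscle and 133 to 1342 in muscle labelled KO, with 0 to 3 counts in any liver. Its summed level was 214 times higher in WT muscle than in WT liver (125 to 403).

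Plin1, the droplet coat gene, had 110 to 866 counts in WT muscle (median 351) and 175 to 1901 in muscle labelled KO (median 290). In liver, 17 of the 22 libraries had 0 counts of Plin1 and 5 had 1 count. The summed WT level was 1408 times higher in muscle, with an interval of 481 to 6830 because only 3 counts were found in WT liver. As in all bulk tissue, a smaller number of fat cells and less of the RNA per fat cell cannot be told apart.

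The remaining 3 genes, the transcription factor, the lipase and the receptor, were present in both tissues. Pparg was higher in liver, with 8.39 to 23.5 CPM in WT liver (median 14.3) and 8.66 to 16.7 CPM in KO liver (median 12.7), against 3.08 to 6.46 CPM in WT muscle (median 3.97) and 2.81 to 11.2 CPM in muscle labelled KO (median 4.75). In WT mice the groups did not overlap, and the log2 fold change of muscle over liver was -1.82 ± 0.15 (SE, n = 11 mice, edgeR adjusted p = 2.5e-11). Lipe was higher in muscle, with 39.4 to 88.03 CPM in WT muscle against 14.2 to 24.6 CPM in WT liver, again without overlap, and a log2 fold change of 1.64 ± 0.11 (edgeR adjusted p = 4.2e-13). Adrb3 was low in both tissues of WT mice and lower in their muscle. In muscle labelled KO it ranged from 0.507 to 11.7 CPM, with mice 561 and 611 (11.7 and 7.95 CPM) above every liver. WT livers had 1.33 to 3.99 CPM of Adrb3 (median 3.04) and WT muscles 0.215 to 4.28 CPM (median 0.912). These WT groups overlapped, and the log2 fold change was -1.08 ± 0.34 (edgeR adjusted p = 0.0048). These fits did not pair the liver and muscle of a mouse. With the mouse as a block, Pparg was at -1.82 ± 0.10, Lipe at 1.62 ± 0.08 and Adrb3 at -1.23 ± 0.38 (edgeR adjusted p = 5.5e-11, 1.1e-11 and 0.0068). In the GENCODE annotation a gene of the other strand overlaps each of Pparg, Lipe and Adrb3, and the strand setting of the counting was not given in the sources used here, so reads of these pairs may be shared. The antisense partner of Lipe had at most 12 counts in any library, and those of Pparg and Adrb3 have no row of their own in the tables used here.

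In the test of muscle against liver in WT mice (edgeR), 45.5% of the 13907 genes tested were called higher in muscle and 45.5% higher in liver. Of the adipocyte genes, Pparg and Adrb3 were called higher in liver and Lipe higher in muscle, and DESeq2 called these 3 as well. Adipoq, Lep, Retn and Plin1 passed the filter on low counts through muscle alone and so had to differ. Their calls are not counted here, and the ratios of summed counts above describe them.

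**Figure D1:**
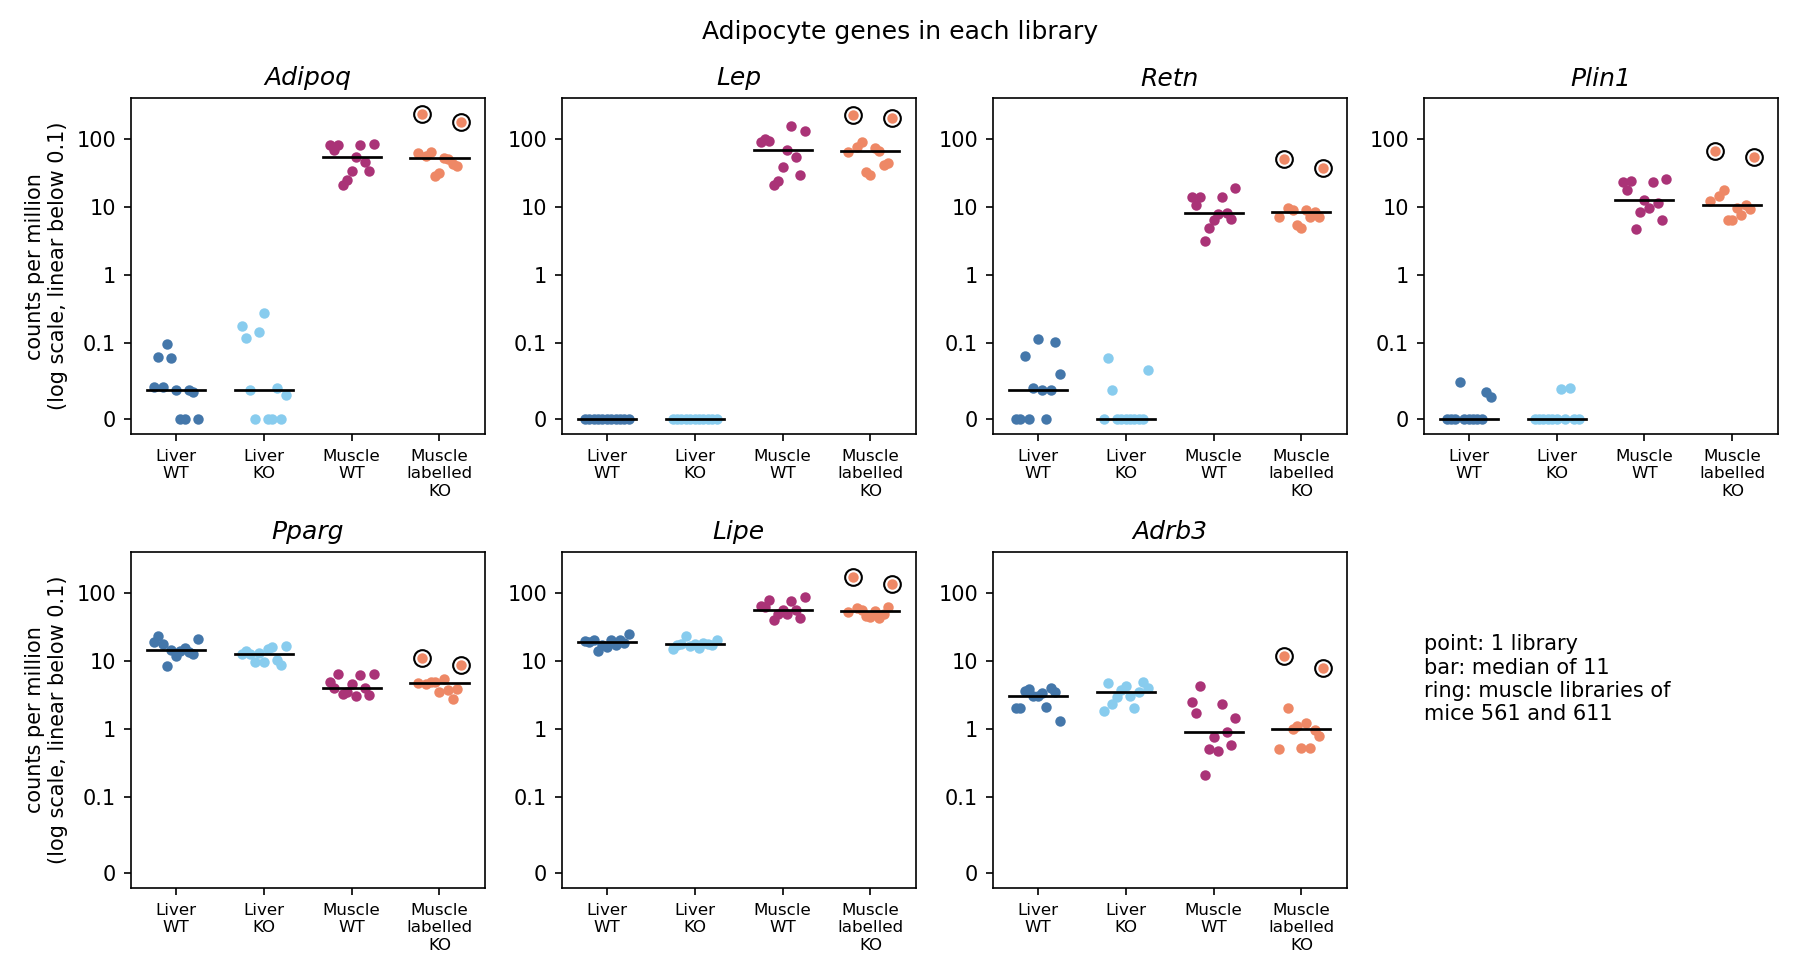
Level in CPM of each adipocyte gene in the 44 libraries, on a log axis that is linear below 0.1, with 1 point per library and a bar at the median of 11. Adipoq, Lep, Retn and Plin1 sit at or near 0 in all livers, Pparg and Adrb3 have higher medians in liver, and the ringed muscle libraries of mice 561 and 611 lie above the other muscle libraries of all 7 genes.

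Levels can be compared between genes only per length, and for this the authors' RPKM values were read. In WT muscle the order of medians was Adipoq (46.3 RPKM), Lipe (21.02), Lep (20.8), Retn (9.24), Plin1 (6.76), Pparg (2.21) and Adrb3 (0.351). The ranges of neighbours overlapped over the 11 mice, but within a library the order held: the gene of higher median was above its neighbour in 11 of 11 libraries for every neighbouring pair other than Lipe and Lep, where Lipe was above Lep in 6 of 11. In WT liver the order was Pparg (7.88 RPKM, range 4.61 to 12.98), Lipe (6.98, range 5.20 to 8.97) and Adrb3 (1.19, range 0.540 to 1.61), and the other 4 were at or below 0.134 RPKM in every WT library. Pparg was above Lipe in 10 of 11 WT livers, and Adrb3 lay below both in all 11.

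Mice differed widely in the adipocyte genes of muscle. Over the 22 muscle libraries, the highest level was 11.3 times the lowest for Adipoq, 10.6 times for Lep, 16.02 times for Retn, 14.4 times for Plin1 and 54.6 times for Adrb3. For Lipe it was 4.28 times and for Pparg 3.99 times. Outside mice 561 and 611, levels were 20.9 to 85.5 CPM for Adipoq, 21.1 to 158 for Lep, 3.18 to 19.3 for Retn and 4.72 to 25.6 for Plin1. They were 0.215 to 4.28 CPM for Adrb3, 39.4 to 88.03 for Lipe and 2.81 to 6.46 for Pparg. Lipe and Pparg thus varied less than the genes that are nearly absent from liver. Over all 22 libraries, the ratio of each gene to Adipoq within a library varied less than the genes themselves. For Lipe and Pparg this rested on mice 561 and 611, since in the other 20 libraries their ratios spanned a wider fold range than their levels. For Retn there were 0.115 to 0.226 counts per Adipoq count (median 0.174), for Plin1 0.153 to 0.368 (median 0.259) and for Lep 0.875 to 1.90 (median 1.15), which is a range of 1.96, 2.40 and 2.17 times. The ratio of Adrb3 to Adipoq ranged over 6.60 times and that of Pparg over 3.55 times.

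The genes moved together between mice of the same group. In WT muscle, Adipoq correlated with Lep (r = 0.97, rho = 0.91), Retn (r = 0.97, rho = 0.98), Plin1 (r = 0.92, rho = 0.89), Adrb3 (r = 0.87, rho = 0.78), Lipe (r = 0.85, rho = 0.82) and Pparg (r = 0.69, rho = 0.69) on the log2 CPM scale (n = 11). The permutation p was 1e-05 for r with Lep and Retn, which is the smallest that 100000 resamples can give, and 0.0223 for r with Pparg. Adjusted over the 16 relations of this family, the p of r was at most 0.030 and that of rho at most 0.039 in all 6. Without the 2 libraries farthest from the median of Adipoq (mice 536 and 537), r was still 0.95, 0.94, 0.89, 0.80, 0.81 and 0.66 in the order above. Neither the total count (r = -0.11, permutation p = 0.752) nor the slope on gene length (r = 0.20, permutation p = 0.575) of a WT library was related to Adipoq beyond its permutation spread.

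In muscle labelled KO the same 6 relations had r of 0.85 to 0.97 (n = 11, adjusted permutation p at most 0.0082). Without the 2 libraries farthest from the median, those of mice 561 and 611, r was 0.94 with Lep, 0.80 with Retn and 0.82 with Plin1, but 0.44 with Lipe, 0.32 with Pparg and 0.14 with Adrb3. The size of the last 3 relations rests on the 2 libraries. By rank over all 11, Lipe passed (rho = 0.68, adjusted permutation p = 0.040), while Pparg (rho = 0.62, adjusted permutation p = 0.069) and Adrb3 (rho = 0.48, adjusted permutation p = 0.18) did not. The slope on gene length of these libraries had r = 0.54 with Adipoq (permutation p = 0.0926, 0.114 adjusted). On the log2 scale, a doubling of Adipoq went in WT muscle with a slope of 1.32 ± 0.11 (SE) for Lep, 1.001 ± 0.09 for Retn and 1.05 ± 0.15 for Plin1, against 0.41 ± 0.08 for Lipe and 0.37 ± 0.13 for Pparg.

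**Figure D2:**
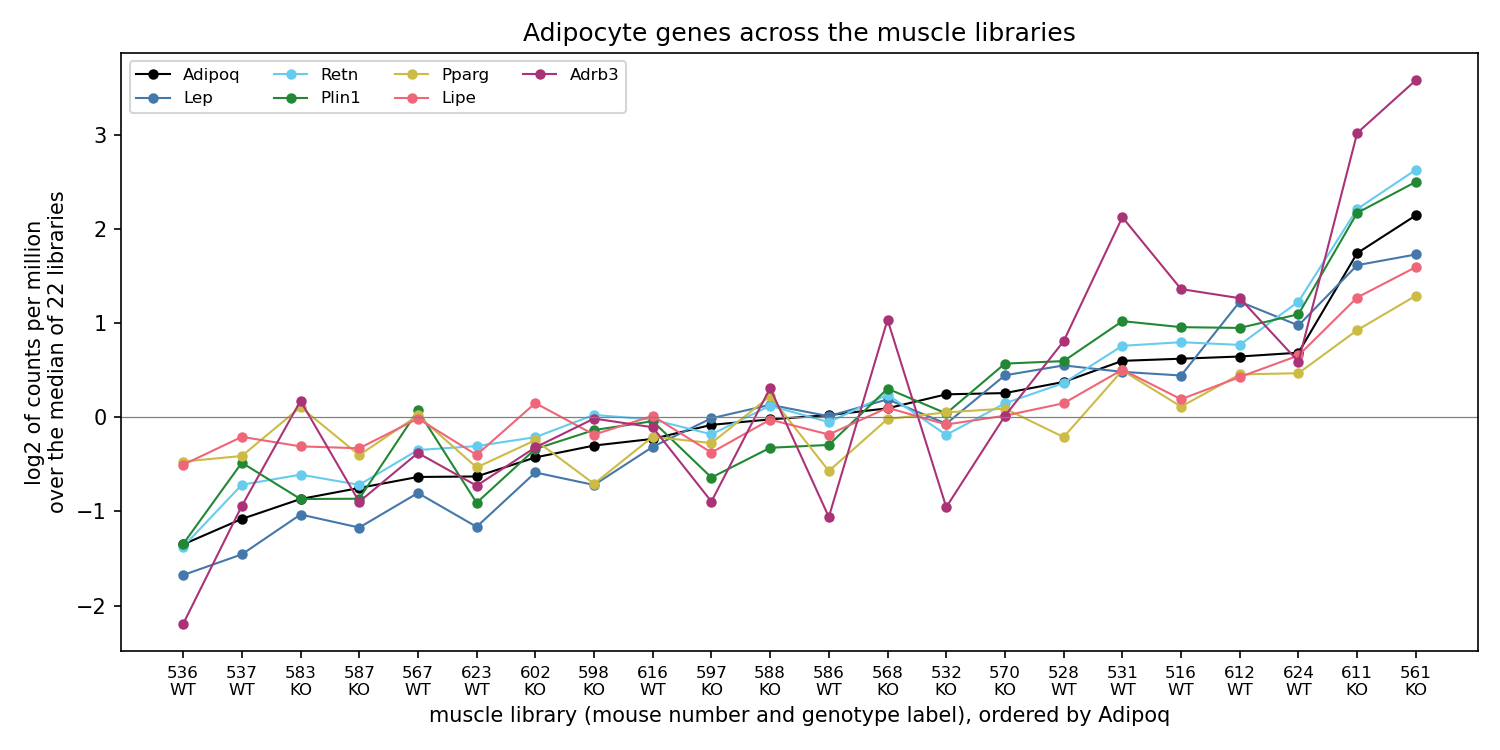
Log2 of the level of each adipocyte gene over its own median, in the 22 muscle libraries ordered by Adipoq from left to right (mouse number and genotype label under each). The lines rise together, with Lipe and Pparg on the flattest courses and Adrb3 on the steepest, and mice 611 and 561 end the order.

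The genes whose deviations from the group mean were most like those of Adipoq over the 22 muscle libraries were Npr3 (rho = 0.993), Ifi27l2a (0.988), Aoc3 (0.980), Ccdc80 (0.977), Fads3 (0.973), Arxes1 (0.973), Prkar2b (0.972), Fabp4 (0.972), Sncg (0.971) and Slc36a2 (0.968). Npr3 encodes the natriuretic peptide clearance receptor, Aoc3 an amine oxidase of the cell surface, Prkar2b a regulatory subunit of protein kinase A and Fabp4 the fatty acid binding protein of fat cells. Of the 13265 other genes tested in muscle, 101 had a rho above 0.9 and 344 above 0.8. Among them the adipocyte genes ranked at 16 (Lep), 43 (Retn), 65 (Plin1), 357 (Lipe), 563 (Adrb3) and 871 (Pparg). This is a description over libraries that share their depth and scaling, in which 2 libraries weigh heavily.

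The 2 muscle libraries highest in Adipoq were those of mice 561 (235 CPM) and 611 (178 CPM), against 20.9 to 85.5 CPM in the other 20. They held the highest and the second highest level of all 7 adipocyte genes. Against the median of the other 20 libraries, the level in mice 561 and 611 was 4.58 and 3.47 times for Adipoq, 3.40 and 3.15 for Lep, 6.35 and 4.75 for Retn, 6.01 and 4.78 for Plin1, 2.64 and 2.05 for Pparg, 3.06 and 2.45 for Lipe and 12.4 and 8.44 for Adrb3. No library of the other 20 reached them in any of the 7. Both libraries were also highest in Slc16a13, with 28 and 40 counts (1.14 CPM in each, against 0.172 to 1.01 CPM in the other 20).

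Further cell markers moved with them, and their part in the values above was not tested. The 18 other adipocyte-enriched genes summed to 4604 and 3588 CPM, against 1476 to 2251 CPM in the other 20 libraries. Car3 alone made 2102 and 1350 CPM of these sums (others 593 to 997). Plin4, at 802 and 631 CPM, lay within the range of the others (532 to 849). The remaining genes of that list ranked 1 or 2 in both mice, apart from Thrsp at rank 3 in mouse 611. The 5 macrophage genes summed to 152 and 165 CPM (others 30.7 to 104), of which Clec4f, which defines Kupffer cells, was at 0 in all muscle libraries. The 5 endothelial genes summed to 303 and 351 CPM (others 168 to 281), and the 3 smooth muscle genes to 168 and 150 CPM (others 54.0 to 123). The 3 nerve sheath genes were at 28.6 and 60.7 CPM (others 21.3 to 44.1), the second value alone being outside that range. The 7 genes of fibro-adipogenic progenitors, the mesenchymal cells of muscle that can form fat, summed to 454 and 548 CPM and lay within the range of the others (278 to 605). Dcn alone made 281 and 354 CPM of these sums, at rank 14 and 2 of the 22. The other genes of that list ranked from 3 to 9 in mouse 561 and from 1 to 7 in mouse 611. Myofibre genes summed to 132321 and 115095 CPM (others 125670 to 165674), and the library of mouse 611 was the lowest of the 22. The hepatocyte list stood at 59.8 and 37.2 CPM (others 4.16 to 13.97), of which Cyp2e1 alone made 57.5 and 31.8 CPM, while Alb, the albumin gene, was at 1.91 and 4.49 CPM (others 0.215 to 5.55).

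**Figure D3:**
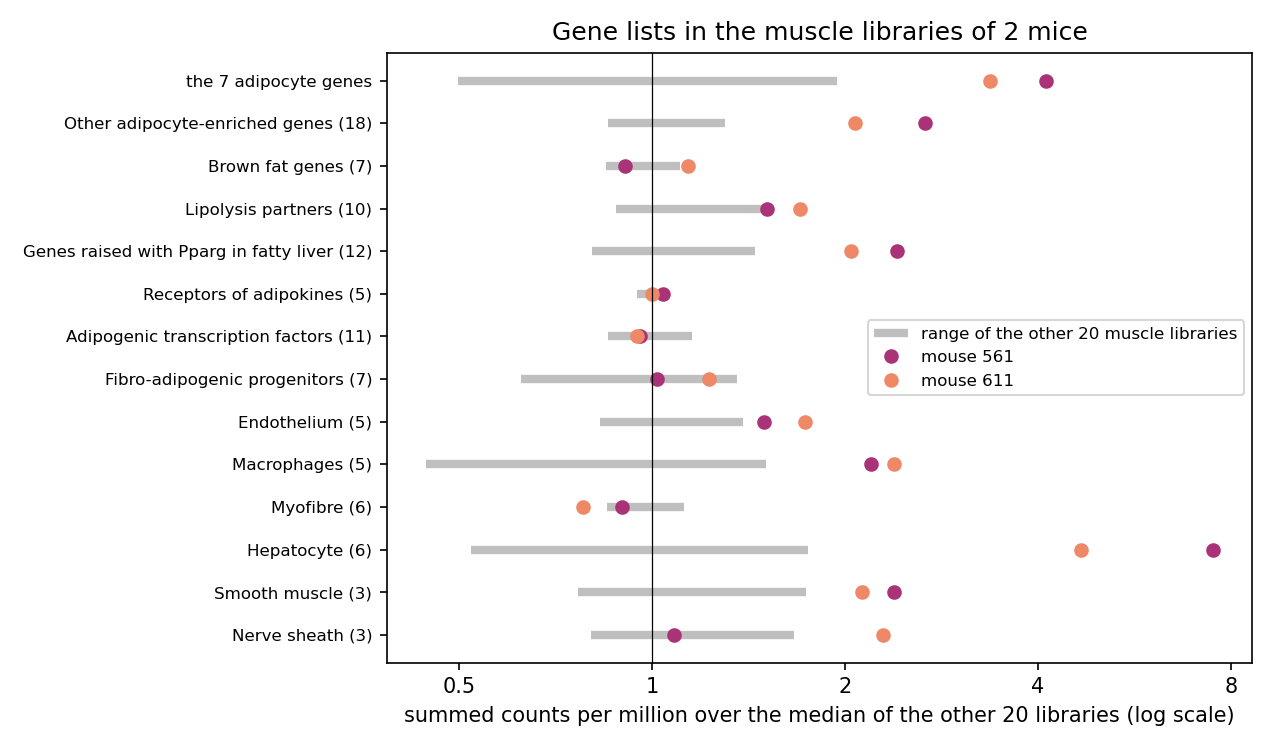
Summed CPM of each gene list in the muscle libraries of mice 561 and 611, over the median of the other 20 muscle libraries (log axis), with a grey bar for the range of those 20 and the number of genes in parentheses. Both mice lie above the bar for the hepatocyte list (7.50 and 4.67 times), the 7 adipocyte genes (4.12 and 3.37), the other adipocyte-enriched genes, the genes raised with Pparg in fatty liver (2.41 and 2.04), macrophages, smooth muscle, lipolysis partners (1.51 and 1.70) and endothelium, and within it for fibro-adipogenic progenitors.

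Brown fat genes did not follow as a list. The 7 of them summed to 226 and 282 CPM in mice 561 and 611 (others 211 to 274), led by Cox8b, a cytochrome oxidase isoform that muscle also uses. Ucp1, the uncoupling protein that defines brown and beige fat cells, had 16 and 19 counts in these 2 libraries and 0 to 2 counts in each of the other 20. In liver Ucp1 was at 0 in all 22 libraries. The other members ranged from the top to the foot of the 22 libraries, with mice 561 and 611 at rank 3 and 1 for Cidea, 2 and 1 for Prdm16, 1 and 8 for Ppargc1a, 12 and 2 for Dio2, 20 and 1 for Cox8b and 21 and 19 for Elovl3.

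In muscle, libraries labelled KO were compared with WT libraries. This is a test of the label, since Slc16a13 itself was not lower in them. Its log2 fold change was 0.64 ± 0.22 (edgeR p = 0.0071 before and 0.49 after adjustment). Without the 2 muscle libraries highest in Adipoq it was 0.47 ± 0.22 (edgeR p = 0.041 before and 0.47 after adjustment). With RPKM it was 0.13 ± 0.18 at a pseudocount of 0.1 and 0.03 ± 0.05 at a pseudocount of 1 (limma). The size of this value thus depended on the setting, and it was above 0 in each of these. All 7 adipocyte genes passed the filter on low counts, and 0 of 7 were called (edgeR). Of all 13266 genes tested, 0.00754%, that is 1 gene, was called. At an unadjusted p under 0.05 there were also 0 of 7, where 8.64% of all genes tested in muscle had such a p, and DESeq2 called 0 of 7. Adipoq was at 20.9 to 85.5 CPM in WT muscle (median 54.0) and at 29.1 to 235 CPM in muscle labelled KO (median 52.3), with a log2 fold change of 0.42 ± 0.33 (SE; 95% interval -0.26 to 1.11; edgeR adjusted p = 0.73). Lep was at 21.1 to 158 CPM and 29.9 to 223 CPM, with 0.21 ± 0.36 (-0.55 to 0.96; edgeR adjusted p = 0.89). The medians of both hormones were lower in muscle labelled KO, while the fitted values, which follow the mean, were above 0.

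Retn had a log2 fold change of 0.49 ± 0.38 (-0.31 to 1.28; edgeR adjusted p = 0.73) and Plin1 of 0.34 ± 0.40 (-0.48 to 1.16; edgeR adjusted p = 0.82). Pparg had 0.21 ± 0.19 (edgeR adjusted p = 0.77), Lipe 0.20 ± 0.21 (edgeR adjusted p = 0.80) and Adrb3 0.82 ± 0.56 (edgeR adjusted p = 0.69). All 7 values were positive, with a median of 0.34 beside 0.0078 over all genes. Without the libraries of mice 561 and 611, a choice made after seeing the data, all 7 were negative (median -0.32, beside 0.0012 over all genes). The values were then -0.21 ± 0.23 for Adipoq, -0.32 ± 0.31 for Lep, -0.38 ± 0.23 for Retn, -0.51 ± 0.27 for Plin1, -0.07 ± 0.15 for Pparg, -0.19 ± 0.12 for Lipe and -0.53 ± 0.41 for Adrb3 (n = 11 WT and 9 labelled KO), and 0 of 7 were called (edgeR adjusted p 0.51 to 0.90). The sign of the group difference thus rested on 2 mice. With all 11 libraries of each group, mice 561 and 611 included, the permutation test of each gene alone gave p from 0.448 (Pparg) to 0.894 (Plin1), two-sided.

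Other adipocyte genes gave the same picture in muscle. Of 18 other adipocyte-enriched genes tested, 0 were called (edgeR, also DESeq2) and 1 had an unadjusted p under 0.05, with 17 positive values and a median of 0.34. With 8.64% of all genes at such a p, 1 of 18 (Cfd, which encodes adipsin) is near the background. Car3, Plin4, Fabp4 and Cidec were the most abundant, with log2 fold changes of 0.19 ± 0.18, 0.11 ± 0.08, 0.37 ± 0.27 and 0.31 ± 0.34. Without the 2 libraries, 16 of the 18 were negative and the median was -0.28. Among 9 lipolysis partners tested 0 were called and 0 had an unadjusted p under 0.05 (median 0.064), Pnpla2, the adipose triglyceride lipase gene, being at -0.07 ± 0.10. Among 11 adipogenic transcription factors 0 were called, 1 (Zfp423) had an unadjusted p under 0.05, and the median was -0.060. Of 5 receptors of adipokines 0 were called and 0 had an unadjusted p under 0.05, with Adipor1 at -0.02 ± 0.05 and Adipor2 at 0.03 ± 0.03. Of 6 brown fat genes tested 0 were called, and 1 (Elovl3) had an unadjusted p under 0.05. DESeq2 called 0 genes in each of these lists.

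In muscle labelled KO, lists of other cells were also not called. Of 7 genes of fibro-adipogenic progenitors all were positive (median 0.18), and 2 (Dcn and Pdgfra) had an unadjusted p under 0.05, where 3.76% of all genes were higher at that p, with Dcn, which encodes decorin, at 0.19 ± 0.08 (edgeR adjusted p = 0.53). Without mice 561 and 611 their median was 0.17 and 6 of 7 were positive. The 6 myofibre genes were all negative (median -0.13). Among them Myh7, the slow myosin heavy chain, was at -3.60 ± 1.03 (edgeR p = 0.0018 before and 0.49 after adjustment). Outside mice 561 and 611, Myh7 ranged from 0 to 77.8 CPM with a median of only 0.66 CPM. The library of mouse 611 ranked 3 among all muscle libraries with 1.70 CPM. The value of Myh7 thus rests on few high libraries of a gene near the floor in most. The 4 macrophage genes tested were all positive (median 0.25), and the 2 hepatocyte genes tested, Alb and Cyp2e1, both had an unadjusted p under 0.05 (median 1.04). Without the 2 libraries these medians were -0.076, 0.012 and 0.48. Their part in the values of the adipocyte genes was not tested.

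**Figure D4:**
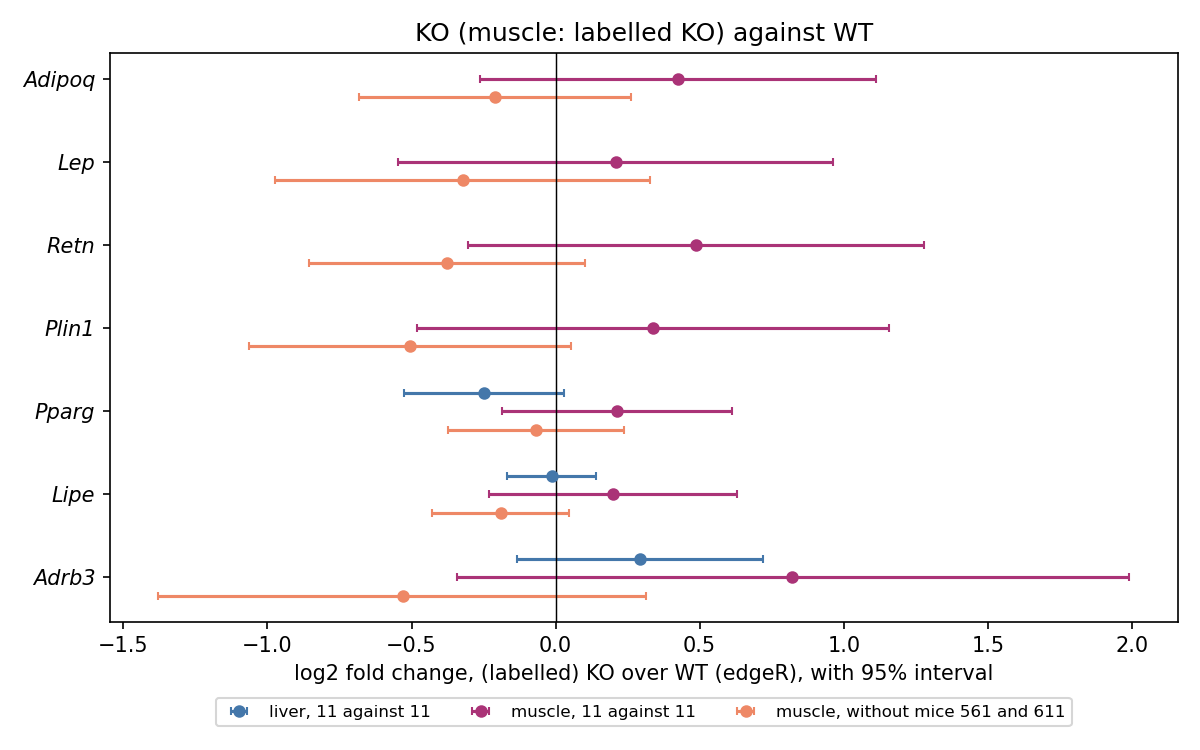
Log2 fold change over WT with its 95% interval (edgeR) for each adipocyte gene, of KO in liver, of the libraries labelled KO in muscle, and of these without mice 561 and 611; Adipoq, Lep, Retn and Plin1 did not pass the filter in liver. All intervals include 0, and the muscle values pass from positive to negative when the 2 libraries are left out.

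In liver, 3 of the 7 genes passed the filter on low counts (Pparg, Lipe and Adrb3), and 0 of these 3 were called (edgeR), where 0.0231% of 13005 genes, that is 3 genes, were called. At an unadjusted p under 0.05 there were 0 of 3, where 12.9% of all genes tested in liver had such a p, and DESeq2 called 0 of 3. Pparg had 169 to 710 counts in WT and 195 to 520 in KO liver. Its levels overlapped widely between the groups, and the log2 fold change was -0.25 ± 0.13 (95% interval -0.53 to 0.03; edgeR adjusted p = 0.39; permutation test of the gene alone, p = 0.118). Without the 4 KO livers whose levels fell with gene length it was -0.30 ± 0.15, and Lipe and Adrb3, described next, were then at -0.02 ± 0.08 and 0.20 ± 0.22. Lipe was at 14.2 to 24.6 CPM in WT and 15.1 to 23.2 CPM in KO liver, and its log2 fold change of -0.01 had an interval of -0.17 to 0.14 (edgeR adjusted p = 0.92). Adrb3 was at 1.33 to 3.99 CPM in WT and 1.81 to 4.84 CPM in KO liver, where 4 KO livers lay above all WT livers, with a log2 fold change of 0.29 ± 0.21 (edgeR adjusted p = 0.44). The 4 genes that did not pass, Adipoq, Lep, Retn and Plin1, had no more than 7 counts in any liver, and a difference between genotypes was not detectable at this depth.

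Genes known to rise with Pparg in fatty liver were tested as a list. Of the 12 in this list 0 were called by edgeR and by DESeq2, 1 had an unadjusted p under 0.05, and 9 were negative, with a median of -0.15 beside -0.0054 over all genes. Without the 4 livers the count of negative values was again 9 of 12 and the median -0.14. The most abundant were Scd1, the stearoyl-CoA desaturase (median 6112 CPM in WT and 3370 in KO; -0.53 ± 0.34), Plin2, the droplet coat protein of hepatocytes (0.04 ± 0.12), Cd36, a fatty acid transporter (-0.38 ± 0.23), and Fitm2 (-0.06 ± 0.06). Cidec, a lipid droplet fusion protein and the gene with an unadjusted p under 0.05, ranged from 9.08 to 114 CPM in WT (median 38.8) and from 6.34 to 62.9 CPM in KO liver (median 15.3). Its log2 fold change was -0.86 ± 0.41 (edgeR p = 0.049 before and 0.38 after adjustment). Without the 4 livers, Cidec was at -0.71 ± 0.49, Scd1 at -0.39 ± 0.34, Cd36 at -0.19 ± 0.23, Plin2 at -0.03 ± 0.14, Fitm2 at 0.0035 ± 0.049 and Adipor2, named next, at -0.02 ± 0.06. Of 5 receptors of adipokines in liver 0 were called and 0 had an unadjusted p under 0.05, with Adipor2 at -0.15 ± 0.08, and DESeq2 called 0. Of 10 lipolysis partners 0 were called by either tool and 0 had an unadjusted p under 0.05. Markers of other liver cells gave 0 calls as well, with all 5 macrophage genes positive (median 0.26, 3 with an unadjusted p under 0.05), as were all 6 hepatocyte genes (median 0.25, 2 with an unadjusted p under 0.05), where 9.78% of all genes tested in liver were higher in KO at that p. Without the 4 livers, 4 of 5 macrophage genes were positive (median 0.11, 1 with an unadjusted p under 0.05). All 6 hepatocyte genes were still positive (median 0.097, 0 with such a p). Of the 13210 genes then tested, 391 had such a p, 179 of them higher in KO. The part of these markers in the value of Pparg was not tested.

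Between mice, Pparg varied 2.80-fold over WT livers, from 8.39 CPM in mouse 536 to 23.5 CPM in mouse 528, and 1.93-fold over KO livers. In WT liver it correlated with Cidea (r = 0.80, rho = 0.81), Cidec (r = 0.77, rho = 0.75), Mogat1 (r = 0.76, rho = 0.69), Cd36 (r = 0.73, rho = 0.78) and Plin4 (r = 0.72, rho = 0.65). For these 5 the permutation p of r was 0.00324 to 0.0119, and 0.030 to 0.043 adjusted over the 18 relations of this family. The adjusted permutation p of rho was 0.056 to 0.13 for the same 5, so the rank test did not pass. Mogat1 makes diacylglycerol, and Cidea and Cidec enlarge lipid droplets. With Plin2 (r = 0.50, permutation p = 0.119) and Fabp4 (r = 0.59, permutation p = 0.0541) the relation did not pass. Without the 2 livers farthest from the median of Pparg, r was 0.68 for Cidea and Cidec, 0.56 for Mogat1, 0.53 for Cd36 and 0.32 for Plin4.

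In KO liver r was 0.65 with Cidea (rho = 0.55), 0.55 with Mogat1 (rho = 0.57), 0.48 with Cd36 (rho = 0.37) and 0.34 with Cidec (rho = 0.33), and 0 of the 7 relations passed after adjustment (adjusted permutation p of r at least 0.10). Without the 2 KO livers farthest from the median, r was 0.81, 0.68, 0.73 and 0.54. Without the 4 KO livers whose levels fell with gene length, a choice made after seeing the data, r was 0.61, 0.52, 0.58 and 0.39 in the same order (n = 7, exact permutation p 0.168 to 0.372). Plin4, at r = 0.48 over the 11 KO livers, was then at r = 0.81 (rho = 0.93), with an exact permutation p of 0.0058 for r and 0.0067 for rho (adjusted over 7 relations, 0.040 and 0.047). Whether the relations differ between the genotypes was not tested. The total count had r = 0.39 with Pparg in each genotype (adjusted permutation p = 0.30 in both), and the slope on gene length r = -0.38 in WT and 0.05 in KO livers.

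**Figure D5:**
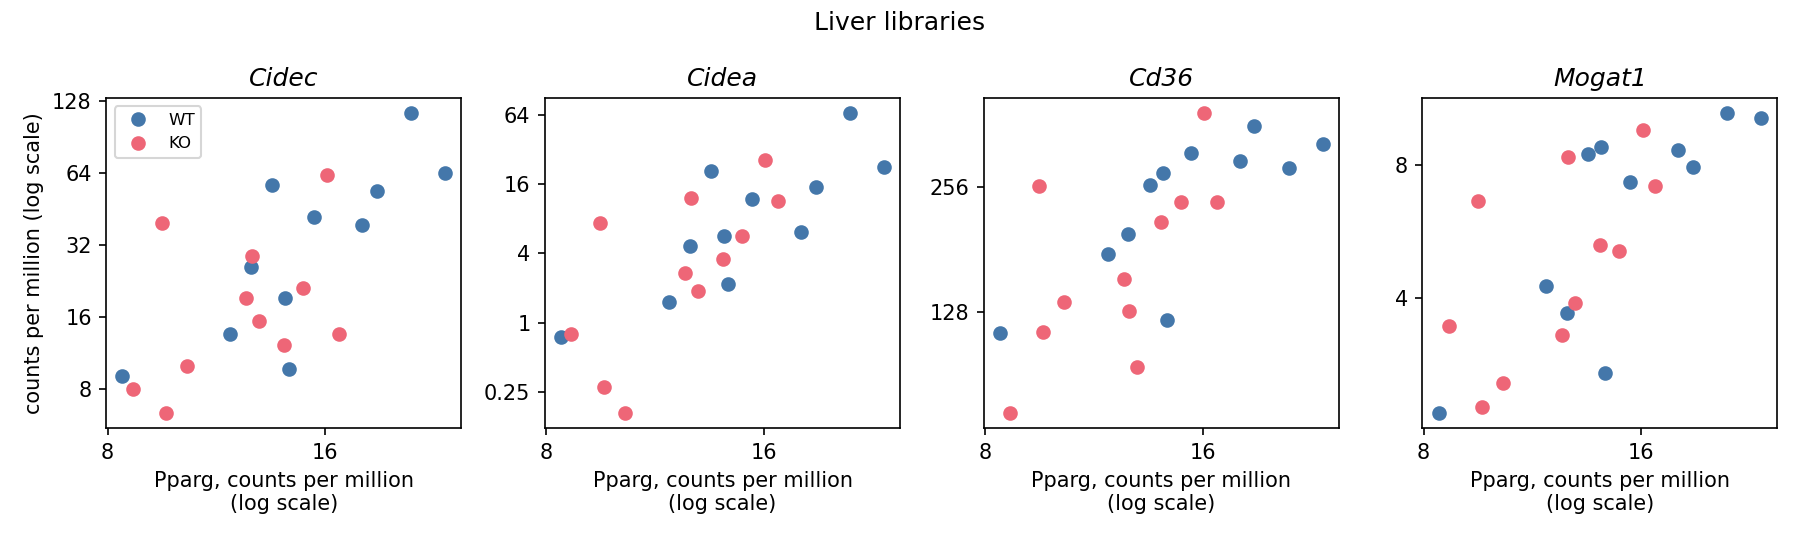
Level of Cidec, Cidea, Cd36 and Mogat1 against that of Pparg in the 22 livers (both axes in CPM, log scale; 1 point per mouse, by genotype). WT livers have r of 0.73 to 0.80 and KO livers of 0.34 to 0.65 in these 4 panels, and whether the genotypes differ was not tested.

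Over the 22 livers, the genes most like Pparg in their deviations from the group mean were Pamr1 (rho = 0.80), Ctsk (0.80), Tgfbi (0.79), Gyg (0.78), Lhfp (0.78), Foxf1 (0.77), Angptl2 (0.77), B430212C06Rik (0.77), Susd2 (0.76) and Gprc5b (0.76). Ctsk encodes cathepsin K, Tgfbi a secreted matrix protein, Gyg glycogenin and Foxf1 a transcription factor of mesenchymal cells. Only 1 of 13004 genes had a rho above 0.8, where Adipoq in muscle had 344. Genes raised with Pparg in fatty liver lay far apart in this order, from Cidea (rank 41), Mogat1 (118), Fabp4 (287), Cd36 (295), Cidec (298), Plin4 (405), Scd1 (479) and Lpl (714) to Fitm1 (1357), Vldlr (2219), Plin2 (4040, rho = 0.17) and Fitm2 (5641, rho = 0.06). The adipocyte genes present in liver did not follow Pparg there, with Lipe at rank 5892 (rho = 0.04) and Adrb3 at rank 12803 (rho = -0.56). All of these ranks include the 4 livers whose levels fell with gene length.

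The difference between genotypes was also compared between the tissues. Of the 14739 genes tested for this, 0.00678%, that is 1 gene, were called, and the gene was Slc16a13. Of the adipocyte genes 0 of 7 were called (edgeR), with 0 at an unadjusted p under 0.05, and DESeq2 called 0. For Pparg, lower in KO liver and higher in muscle labelled KO by fitted value, the difference between the tissues was 0.45 ± 0.24 (95% interval -0.04 to 0.94; edgeR adjusted p = 0.34). It was 0.20 ± 0.23 for Lipe (edgeR adjusted p = 0.65) and 0.51 ± 0.61 for Adrb3 (edgeR adjusted p = 0.67). Without the muscle libraries of mice 561 and 611 these 3 values were 0.18 ± 0.21, -0.18 ± 0.14 and -0.83 ± 0.45, and without the 4 livers 0.51 ± 0.26, 0.22 ± 0.26 and 0.61 ± 0.68. With the mouse as a block, since liver and muscle came from the same animals, Pparg was at 0.39 ± 0.17 (edgeR p = 0.032 before and 0.32 after adjustment), Lipe at 0.087 ± 0.19 and Adrb3 at 0.0041 ± 0.60. Retn had an unadjusted p of 0.017 in that fit (edgeR adjusted p = 0.32), and its value, like those of Adipoq, Lep and Plin1, rests on next to no liver level.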

How the data were processed

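Bulk poly(A) RNA of 44 libraries from 22 mice was used. Library kit, RNA quality and the limma package are named by the study, and the aligner, counter, build and annotation were not given in the sources used here. The authors deposited raw read counts per gene and, in a second table, RPKM values scaled by the authors to gene length and library size. The gene length that both tables imply was not fixed between libraries, so RPKM served only for levels between genes and as an alternative. Symbols were found for 36340 of 38202 identifiers.

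For each comparison, edgeR 4.0.16 under R 4.3.3 was fitted to the deposited counts by its quasi-likelihood test, with TMM scaling and its own filter on low counts. P-values were adjusted by Benjamini-Hochberg over every gene tested, at a threshold of 0.05, and the fits were first tested on simulated data. DESeq2 1.42.0, limma 3.58.1 on log2(RPKM + 0.1) and log2(RPKM + 1), other filters and scalings, each mouse left out and gene length removed were alternatives. CPM is counts over the library total, and log2 CPM used a prior count of 2. Permutation tests drew 100000 resamples and were two-sided. P-values measure the spread between mice, 11 per group. The labels and study do not name the members of the sequencing pools, so no within-pool value could be had. Motif letters were searched in RefSeq promoters.

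Animal numbers pair the liver and muscle of a mouse. Deviations from the group mean correlated by 0.10 on average within a mouse and by -0.010 between mice of a genotype. No 2 libraries of a group were identical. All 7 genes were named, and from each gene list up to 4 (the smallest adjusted p among genes called, otherwise the highest mean CPM), besides the 10 genes most alike. Some genes of the lists were named outside this rule because of their unadjusted p, among them Myh7, Cfd, Zfp423, Elovl3 and Pdgfra in muscle and Cidec in liver. Genes and lists were chosen with earlier results of these data known.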

Additional observations from a re-analysis of the deposited data

How the results depend on the processing

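Genes called between genotypes numbered 3 in liver, and 6 with DESeq2, 4 without a filter, 2 with gene length removed and 1 where 10 counts were required in every library. In muscle 1 gene was called, and 0 without a filter, with 10 counts in every library, with RPKM at either pseudocount, and without the 2 muscle libraries highest in Adipoq. For genotype by tissue 1 gene was called, and 3 with library size alone, 43 with DESeq2, 0 with 10 counts in every library, and 2 with RPKM at either pseudocount, with gene length removed, without the 4 livers of negative slope, and without the 2 muscle libraries. Leaving out each mouse gave 3 to 3 calls in liver, 1 to 1 in muscle, 12567 to 12690 between tissues and 1 to 3 for genotype by tissue, where leaving out mouse 537 or 567 gave 3. With the mouse as replicate block there were 12674 calls between tissues and 1 for genotype by tissue, and the block changed no call of an adipocyte gene, while the values it moved for genotype by tissue are given with that comparison.

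No adipocyte gene was called between genotypes under any alternative, and Pparg, Lipe and Adrb3 stayed called between tissues wherever they were tested. Unlike in the main fit, Pparg in liver had an unadjusted edgeR p under 0.05 in 2 settings. It was 0.034 with gene length removed (-0.31 ± 0.14) and 0.046 with library size alone (-0.31 ± 0.15), as for 1022 and 1408 of 13005 genes tested. For genotype by tissue, its unadjusted edgeR p was 0.042 and 0.041 in these settings. Direction changed for all 7 in muscle without mice 561 and 611 (-0.21 for Adipoq, -0.32 for Lep, -0.38 for Retn, -0.51 for Plin1, -0.066 for Pparg, -0.19 for Lipe, -0.53 for Adrb3) and, for genotype by tissue, for Lipe (-0.18) and Adrb3 (-0.83). For genotype by tissue it also changed for Lep (-0.32) and Plin1 (-0.16) without these mice, and for Adipoq with RPKM (0.19 and 0.23). Those values rest on next to no liver level. Leaving out each mouse ranged from -0.030 to 0.37 for Lep, -0.046 to 0.44 for Plin1 and -0.0068 to 0.26 for Lipe in muscle, each low value being without mouse 561. It ranged from -0.050 to 0.037 for Lipe in liver, and for genotype by tissue from -0.0077 to 0.26 for Lipe and -0.028 to 0.79 for Adrb3. With gene length removed Lipe in liver was 0.0024, and r of Pparg with Plin2 in KO liver 0.040, which was 0.016 without the 4 livers. Of the 14 relations of Pparg in liver, 0 passed by both r and rho, against 2 with RPKM and 3 with gene length removed. The cause of these changes was not tested. Adipoq, Retn and Plin1 in liver, at 0 to 7 counts, were too shallow for any comparison of genotypes.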

Other observations

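Mouse 624 had the highest Adipoq of the WT muscles (85.5 CPM) and the highest Cidec (114 CPM) and Cidea (66.7 CPM) of the WT livers, and mouse 536 had the lowest of each (20.9, 9.08 and 0.744 CPM). After these values were seen, Pparg in liver was set against Adipoq in muscle of the same mouse. In WT mice r was 0.83 (n = 11, permutation p = 0.00123, 0.00246 adjusted over 2 relations) and rho 0.81 (permutation p = 0.00369, 0.00738 adjusted), and r was 0.77 without the 2 mice farthest from the median of Pparg. Those 2 were mice 536 and 528, so mouse 624 was kept. Mice 624 and 536 prompted this relation and are among the 11 tested, and the p-values do not account for that choice. In KO mice, with the muscle labels as given, r was 0.44 (permutation p = 0.184) and rho 0.22 (permutation p = 0.521). Whether the genotypes differ in this was not tested.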
